A study of Rattus norvegicus with 12 samples.

Results

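The salt-inducible kinases, the CREB-regulated transcription coactivators, the CREB proteins and a pair of their target genes were followed in the free walls of both ventricles, left (LV) and right (RV), of newborn rats. The members were the 10 genes listed in the deposited table as Sik1, Sik2, Sik3, Crtc1, Crtc2, Crtc3, Creb1, Crem, Nr4a1 and Nr4a3, out of 32545 genes in all. All 10 passed the minimum mean level of 0.5 FPKM (fragments per kilobase of transcript, scaled to library depth), as did 13910 genes in all. The set was selected on measured values, the FPKM of the volume-overloaded against the sham-operated LV, in which the rise of Sik1 was already known, so the values of the members in every comparison that uses its libraries are given as a description with no p value, and only VO RV against sham RV is tested for them.

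Sprague–Dawley (SD) rats were operated on postnatal day 1 (P1), and RNA of the ventricular free walls was sequenced on P7. An arteriovenous fistula between the abdominal aorta and the inferior vena cava imposed volume overload (VO) on both ventricles, and sham-operated rats served as controls. The 4 groups (VO LV, VO RV, and their controls sham LV and sham RV) had 3 libraries each, and the study's methods describe isoflurane and ice cooling as the anaesthesia for the operation. The study writes of individual ventricles, but the labels tie no library to an animal, so p values measure the spread between these libraries, which may be technical.

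Salt-inducible kinases belong to the AMP-activated kinase family. They are switched on by the kinase LKB1 and phosphorylate the CRTC coactivators and the class IIa histone deacetylases, which 14-3-3 proteins then hold in the cytoplasm. Cyclic AMP, through protein kinase A (PKA), restrains the salt-inducible kinases, and dephosphorylated CRTC proteins enter the nucleus and join CREB at cyclic AMP response elements (CREs). In cardiac muscle this circuit lies downstream of beta-adrenergic receptors, and SIK1 is itself a CREB target as well as a regulator of class IIa histone deacetylases.

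The 250 bases before the start of 3 members are shown because they carry the CRE letters of the genes that stood apart in both ventricles, and those of Crtc2 are shown beside them because it was lower in VO LV. The sequences are from RefSeq on the GRCr8 build, 5′ to 3′ along the gene. Capitals mark the short CRE motif TGACG, or CGTCA where it lies on the other strand, and the full palindrome TGACGTCA, in which a short motif of each strand overlaps. The windows are chr20:9958647-9958896 (minus strand) for Sik1, chr7:134259888-134260137 (plus strand) for Nr4a1, chr17:58984547-58984796 and chr17:58985240-58985489 (plus strand) for the starts called Crem window 2 and Crem window 3, and chr2:178007024-178007273 (plus strand) for Crtc2.
Sik1: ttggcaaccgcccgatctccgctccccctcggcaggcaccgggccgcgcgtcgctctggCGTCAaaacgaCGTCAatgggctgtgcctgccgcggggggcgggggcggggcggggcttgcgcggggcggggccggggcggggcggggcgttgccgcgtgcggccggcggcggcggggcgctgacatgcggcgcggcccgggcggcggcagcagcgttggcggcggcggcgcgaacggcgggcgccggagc
Nr4a1: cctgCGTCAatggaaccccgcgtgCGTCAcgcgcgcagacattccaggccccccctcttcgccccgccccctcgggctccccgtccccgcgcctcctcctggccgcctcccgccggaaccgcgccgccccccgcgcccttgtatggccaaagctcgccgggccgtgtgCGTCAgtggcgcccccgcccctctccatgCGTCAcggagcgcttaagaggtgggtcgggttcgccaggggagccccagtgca
Crem window 2: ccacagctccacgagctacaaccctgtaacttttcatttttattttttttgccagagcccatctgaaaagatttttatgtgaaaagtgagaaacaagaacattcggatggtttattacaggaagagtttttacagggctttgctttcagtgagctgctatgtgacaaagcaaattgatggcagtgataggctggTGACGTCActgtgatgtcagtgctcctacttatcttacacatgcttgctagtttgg
Crem window 3: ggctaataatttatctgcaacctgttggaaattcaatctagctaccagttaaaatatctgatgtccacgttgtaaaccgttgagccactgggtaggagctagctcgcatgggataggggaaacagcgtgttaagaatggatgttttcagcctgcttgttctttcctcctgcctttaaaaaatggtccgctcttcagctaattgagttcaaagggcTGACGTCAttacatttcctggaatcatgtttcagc
Crtc2: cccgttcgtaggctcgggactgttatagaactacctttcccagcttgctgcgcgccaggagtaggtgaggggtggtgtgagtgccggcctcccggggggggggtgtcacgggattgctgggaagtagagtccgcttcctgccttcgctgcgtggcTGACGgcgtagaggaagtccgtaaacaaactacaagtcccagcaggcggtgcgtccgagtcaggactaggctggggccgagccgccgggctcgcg

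The search covered 300 bases per start, 250 before and 50 after it, for 12 windows that matched 9 of the 10 genes. Nr4a3 had no window in the set that was searched. Sik1 held 2 short motifs, at positions −191 and −180 from the start, and Nr4a1 held 4, at −246, −226, −82 and −53. Crem window 1 held 2 short motifs, Crem window 2 held 1 full palindrome at −56, and Crem window 3 held full palindromes at −35 and at 39, the latter beyond the printed bases. Sik2 held 2 short motifs, Sik3 held 3, Crtc2 held 1, and Creb1 held 3 in window 1 and 0 in window 2. Neither Crtc1 nor Crtc3 held the letters in its window. At least 1 short motif lay in 9 of the 12 windows, against 21.2% of the 33469 rat windows searched, and at least 4 lay in 0.236% of all windows. The full palindrome lay in 2 of the 12 windows, against 1.83% of all. The members' windows ranged from 41.3% to 81.3% in GC content, the share was not adjusted for it, and a match describes letters and is not a measured binding site.

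**Figure D1:**
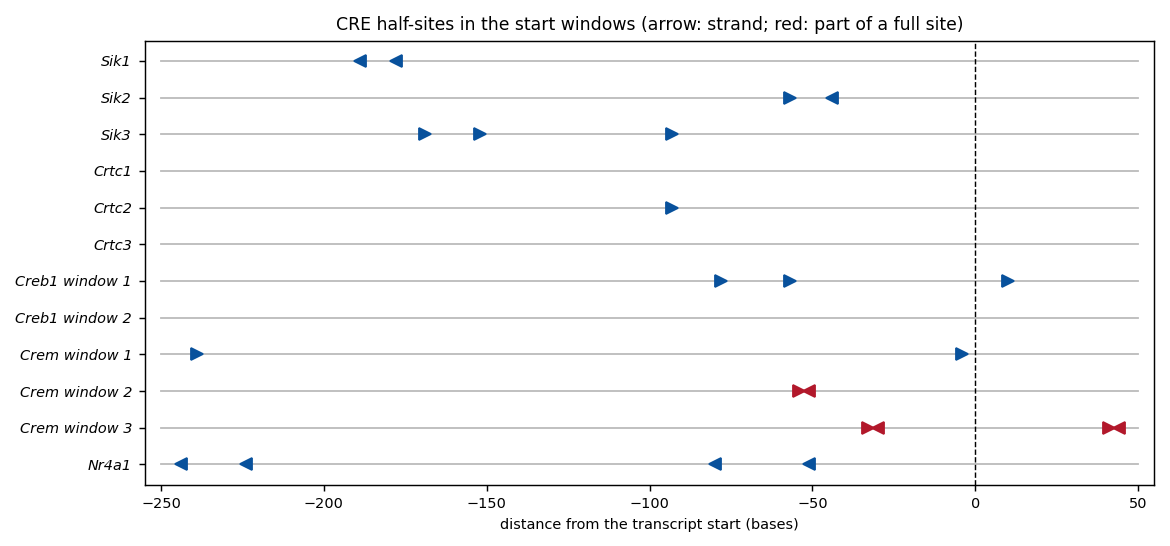
Positions of the short CRE motif in the 12 start windows, with the distance from the transcript start in bases on the x axis and 1 line per window. Arrows point along the strand of each motif and red marks the full palindromes, which lie in Crem windows 2 and 3, while the lines of Crtc1, Crtc3 and Creb1 window 2 are empty.

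The libraries held 14121713 to 16871371 reads on genes. All 10 ventricular cardiomyocyte markers were above 0 in every library, with sums of 19240 to 30650 FPKM, and the fat markers summed to at most 0.1225 FPKM. Several libraries stood apart. The atrial marker sum was 4564 FPKM in VO RV replicate 2 and 1068 FPKM in sham RV replicate 1, against 217.5 to 313.8 FPKM in the other 4 RV libraries. It was 709.6 to 1157 FPKM in sham LV and 893.3 to 1730 FPKM in VO LV, so by the sum sham RV replicate 1 stood apart only in the RV. The atrial marker Sln was 387.9 FPKM in VO RV replicate 2 and 97.7 FPKM in sham RV replicate 1, and at most 0.678 FPKM elsewhere. Bmp10 was 72.4 and 12.6 FPKM in the same libraries, and at most 0.152 FPKM elsewhere. The summed level of the Y-linked genes was 56.1 to 64.9 FPKM in 5 libraries (sham LV and sham RV replicates 1 and 2, and VO RV replicate 3) and 0.191 to 0.373 FPKM in the other 7. All 3 VO LV libraries were in the low class and 2 of the 3 sham LV libraries were in the high one, and the labels give no sex. VO LV and VO RV replicate 3 share a number but fell into different classes. Across all tested genes, the library that correlated best belonged to the same group for 4 of the 12 libraries and to the other surgery for 7. Thus VO RV replicate 3 was closest to sham LV replicate 1 (r = 0.979), and sham LV replicates 1 and 2 were closest to VO RV replicate 3. The endothelial marker sum was 350.7 to 382.9 FPKM in sham LV, above the 273.5 to 308.8 FPKM of VO LV and the 243.8 to 279.0 FPKM of sham RV. The fibroblast sum was 2546 to 2736 FPKM in sham LV and 2023 to 2498 FPKM in VO LV, also without overlap, and VO RV replicate 2 had the highest fibroblast sum (4854 FPKM) and the lowest ventricular one of all libraries. Sham LV lay above sham RV without overlap in the red blood cell sum (13330 to 17260 against 6750 to 11320 FPKM) and the smooth muscle sum (467.2 to 628.5 against 405.4 to 448.0 FPKM), and above VO LV in the macrophage sum (42.17 to 46.62 against 38.03 to 41.03 FPKM). In the RV the macrophage sum was higher under VO by mean (56.22 against 39.59 FPKM), though the groups overlapped (41.1 to 68.23 against 35.48 to 42.47 FPKM). The part of these shifts in the results for those groups was not tested. In whole tissue, fewer cells of a type and less RNA per cell cannot be told apart.

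Sik1 encodes salt-inducible kinase 1, the member of the family whose transcription is itself inducible (identifier ENSRNOG00000001189, chromosome 20, 10668411 to 10680283 on the minus strand, in the positions of the deposited table, whose build is not given in the sources used here). Its level was 5.05, 4.84 and 4.68 FPKM in sham LV and 7.81, 6.90 and 5.33 FPKM in sham RV. It was 13.0, 15.2 and 15.6 FPKM in VO LV and 13.1, 14.4 and 8.83 FPKM in VO RV. Every VO library lay above every sham library, and VO RV replicate 3 was the lowest of the 6.

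The means of Sik1 were 14.6 ± 1.40 FPKM in VO LV and 12.1 ± 2.93 in VO RV, against 4.86 ± 0.187 in sham LV and 6.68 ± 1.25 in sham RV (SD, n = 3). The order of the group means was sham LV, sham RV, VO RV and VO LV, and the neighbours in that order did not overlap except for VO RV and VO LV. The log2 fold change of VO over sham was 1.49 ± 0.18 in the LV (SE), which is 2.82-fold.

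In the RV, Sik1 was 1.74-fold higher under VO, with a log2 fold change of 0.80 ± 0.18 (SE). The limma test gave an unadjusted p of 0.000737 and an adjusted p of 0.482 over 13910 genes, so it did not pass. The SE comes from the model of all 4 groups, LV libraries included, and a fit of the 6 RV libraries alone gave the same fold change with an adjusted p of 0.743. It was higher in 3 of 3 VO RV libraries, with an exact two-sided permutation p of 0.1, the smallest that 3 libraries against 3 can give. Without VO RV replicate 3 the log2 fold change was 1.01 with an adjusted p of 0.181, and over all alternatives, each library left out included, the adjusted p lay between 0.181 and 0.882.

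Within the 7 libraries with little Y-linked RNA, Sik1 was 4.68 and 5.33 FPKM in the 2 sham libraries and 13.0 to 15.6 FPKM in the 5 VO libraries. Among the other 5 libraries it was 4.84 to 7.81 FPKM in the 4 sham libraries and 8.83 FPKM in the single VO library. Fitted on the 7 libraries alone, the change on the log2 scale came to 1.54 (LV) and 1.29 (RV). Those fits rest on 1 sham library per ventricle, assumed to vary like the other groups.

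Sik2 and Sik3, the broadly expressed paralogs, had values closer to 0 than Sik1 in both comparisons of VO with sham. Sik2 was 6.85 ± 0.347 FPKM in VO LV and 6.88 ± 0.867 in VO RV, against 6.11 ± 0.222 in sham LV and 7.11 ± 0.252 in sham RV. All 3 sham LV libraries lay below the sham RV and the VO LV libraries, and the log2 fold change was 0.15 ± 0.10 for VO in the LV and −0.05 ± 0.10 in the RV (adjusted p = 0.909, limma).

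Sik3, the most abundant of the family per unit of length in the sham groups, was 12.1 ± 0.858 FPKM in VO LV and 11.2 ± 0.631 in VO RV, against 10.5 ± 1.28 in sham LV and 12.3 ± 0.720 in sham RV. Its groups overlapped in all 4 comparisons. Its log2 fold change was 0.20 ± 0.10 for VO in the LV and −0.13 ± 0.10 in the RV (adjusted p = 0.735, limma).

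As a share of the summed SIK level, Sik1 made up 22.7 ± 1.91% in sham LV and 25.5 ± 4.30% in sham RV, and 43.5 ± 1.91% in VO LV and 39.8 ± 5.68% in VO RV (SD, n = 3). The share of Sik3 was 48.9% and 47.2% in the sham groups and 36.0% and 37.4% under VO, so that by group mean Sik3 was the largest share in sham and Sik1 under VO, except that Sik3 stayed the larger in VO RV replicate 3. Library by library, the Sik1 share was 20.5% to 29.3% in the sham groups and 33.3% to 45.4% under VO. The summed level of the 3 genes was 33.5 ± 2.27 FPKM in VO LV and 30.2 ± 3.82 in VO RV, against 21.5 ± 1.34 in sham LV and 26.1 ± 0.538 in sham RV. These shares contain the rise of Sik1 and are no separate result.

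**Figure D2:**
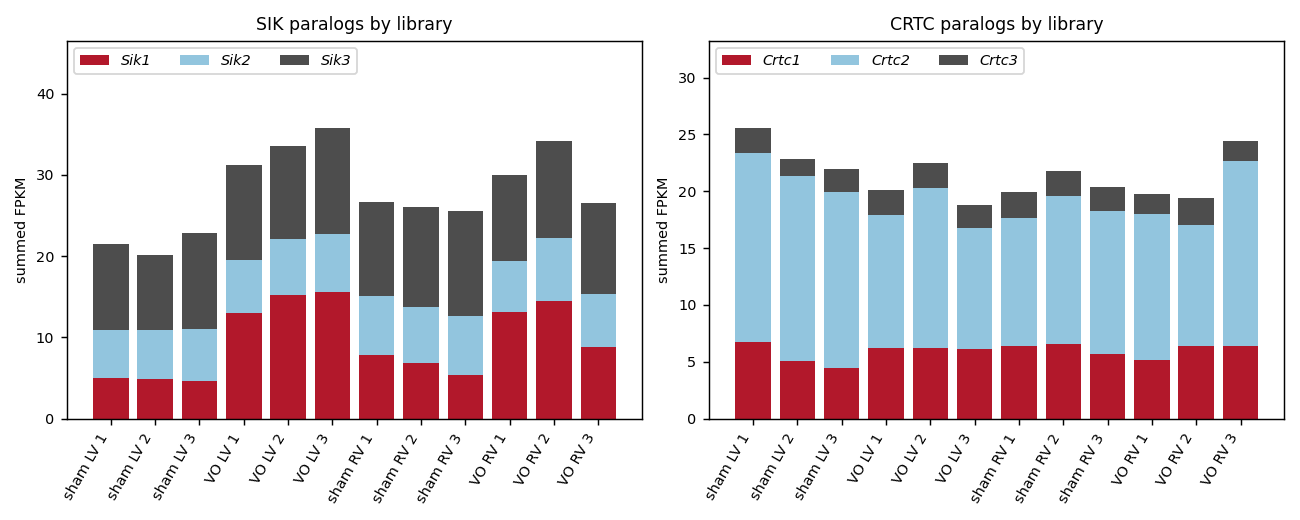
Summed FPKM of the SIK genes (left) and CRTC genes (right) in each library, with the y axis in FPKM from 0 and stacked bars split by paralog. The Sik1 segment makes up 33.3% to 45.4% of the bar in the VO libraries and 20.5% to 29.3% in the sham libraries, while Crtc2 is the largest CRTC segment in all 12.

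Crtc2, the coactivator best known from liver gluconeogenesis, was the most abundant CRTC gene in every library. It was 11.7, 14.1 and 10.6 FPKM in VO LV and 12.9, 10.6 and 16.3 in VO RV, against 16.6, 16.3 and 15.5 in the LV and 11.2, 13.0 and 12.6 in the RV of sham rats. The sham LV libraries lay above all sham RV and all VO LV libraries, while VO RV spanned both levels, with VO RV replicate 3 at the sham LV level.

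Crtc2 had a log2 fold change of 0.38 ± 0.14 between sham LV and sham RV, −0.40 ± 0.14 for VO in the LV and 0.09 ± 0.14 for VO in the RV (adjusted p = 0.874, limma). Without VO RV replicate 3, the RV value was −0.06. Its share of the summed CRTC level was 59.1 ± 3.26% in VO LV and 62.3 ± 6.41% in VO RV, against 68.9 ± 3.54% in sham LV and 59.3 ± 2.75% in sham RV.

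Crtc1, known mostly from neurons, and Crtc3 did not separate any pair of groups. Crtc1 had group means of 5.42 to 6.22 FPKM and Crtc3 of 1.92 to 2.18 FPKM, with log2 fold changes for VO of 0.19 ± 0.14 and 0.15 ± 0.15 in the LV and −0.06 ± 0.14 and −0.15 ± 0.15 in the RV. The tests in the RV gave adjusted p values of 0.928 and 0.800 (limma).

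Creb1, the transcription factor that the CRTC proteins join, was 4.45, 4.38 and 6.99 FPKM in sham LV and 9.84, 7.19 and 7.29 FPKM in sham RV. It was 6.64 ± 0.306 FPKM in VO LV and 6.20 ± 0.690 in VO RV. The sham groups did not overlap, but sham LV replicate 3 lay near the sham RV libraries and at the level of VO LV.

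The log2 fold change of Creb1 between sham LV and sham RV was −0.59 ± 0.17, and −0.80 without sham LV replicate 3. VO gave 0.34 ± 0.17 in the LV and −0.35 ± 0.17 in the RV (adjusted p = 0.614, limma), where all VO libraries lay below the sham ones. In the 7 libraries with little Y-linked RNA the 2 sham values were 6.99 and 7.29 FPKM and the 5 VO values were 6.37 to 6.97 FPKM. The deposited table counts Creb1 over only 1126 bases, with 77 to 183 reads per library.

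Crem encodes both activators and, from an internal start, the inducible repressor ICER, which gene-level values do not separate. It was 6.32, 7.13 and 6.07 FPKM in VO LV and 7.24, 6.22 and 5.74 in VO RV, against 5.24, 6.02 and 5.28 in the LV and 4.30, 5.45 and 4.91 in the RV of sham rats. In each ventricle the VO libraries lay above the sham libraries, by margins as small as 6.07 against 6.02 FPKM in the LV.

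For Crem, VO gave a fitted log2 fold change of 0.22 ± 0.12 (LV) and 0.36 ± 0.12 (RV), and in the RV limma gave an adjusted p of 0.542 and the permutation test an exact p of 0.1. In the 7 libraries with little Y-linked RNA it was 4.91 and 5.28 FPKM in sham and 6.07 to 7.24 FPKM under VO.

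Nr4a1 encodes the orphan nuclear receptor NUR77, an immediate early gene and a classical CREB target (ENSRNOG00000007607, chromosome 7, 142905758 to 142920216 on the plus strand). It was 6.26, 7.40 and 6.92 FPKM in sham LV and 8.17, 9.96 and 7.94 in sham RV. It was 13.5, 18.4 and 14.9 FPKM in VO LV and 17.0, 18.9 and 14.2 in VO RV. As with Sik1, all 6 VO libraries lay above all 6 sham libraries.

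The means of Nr4a1 were 15.6 ± 2.51 FPKM in VO LV and 16.7 ± 2.36 in VO RV, against 6.86 ± 0.571 in sham LV and 8.69 ± 1.10 in sham RV. VO LV and VO RV overlapped, and the difference between them was −0.10 ± 0.14 on the log2 scale. The log2 fold change of VO was 1.12 ± 0.14 in the LV, which is 2.18-fold.

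In the RV, Nr4a1 was 1.87-fold higher under VO, with a log2 fold change of 0.91 ± 0.14 (SE). The limma test gave an unadjusted p of 4.49e-05 and an adjusted p of 0.313, and the exact permutation p was 0.1. Over all alternatives the adjusted p lay between 0.116 and 0.762, so the RV change passed in none of them. In the 7 libraries with little Y-linked RNA, Nr4a1 was 6.92 and 7.94 FPKM in sham and 13.5 to 18.9 FPKM under VO.

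Nr4a3, the related receptor NOR1, was close to the limit of these libraries, with 7 to 146 reads. It was 0.647, 1.59 and 1.01 FPKM in VO LV and 0.734, 1.85 and 0.582 in VO RV, against 0.104, 0.295 and 0.197 in the LV and 0.289, 1.25 and 0.444 in the RV of sham rats. The LV groups did not overlap and the RV groups did, and replicate 2 was the highest library in every group. The within-group SD on the log2 scale was 0.49, larger than that of 91.0% of the tested genes.

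Nr4a3 had a log2 fold change of 1.14 ± 0.37 for VO in the LV and 0.42 ± 0.37 in the RV (adjusted p = 0.758, limma), on a scale with 0.5 FPKM added that understates changes at this level. Without VO RV replicate 2 and sham RV replicate 1, the libraries with the high atrial markers, the RV value was −0.15. The same removal left Sik1 at 0.78 and Nr4a1 at 0.77 in the RV.

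**Figure D3:**
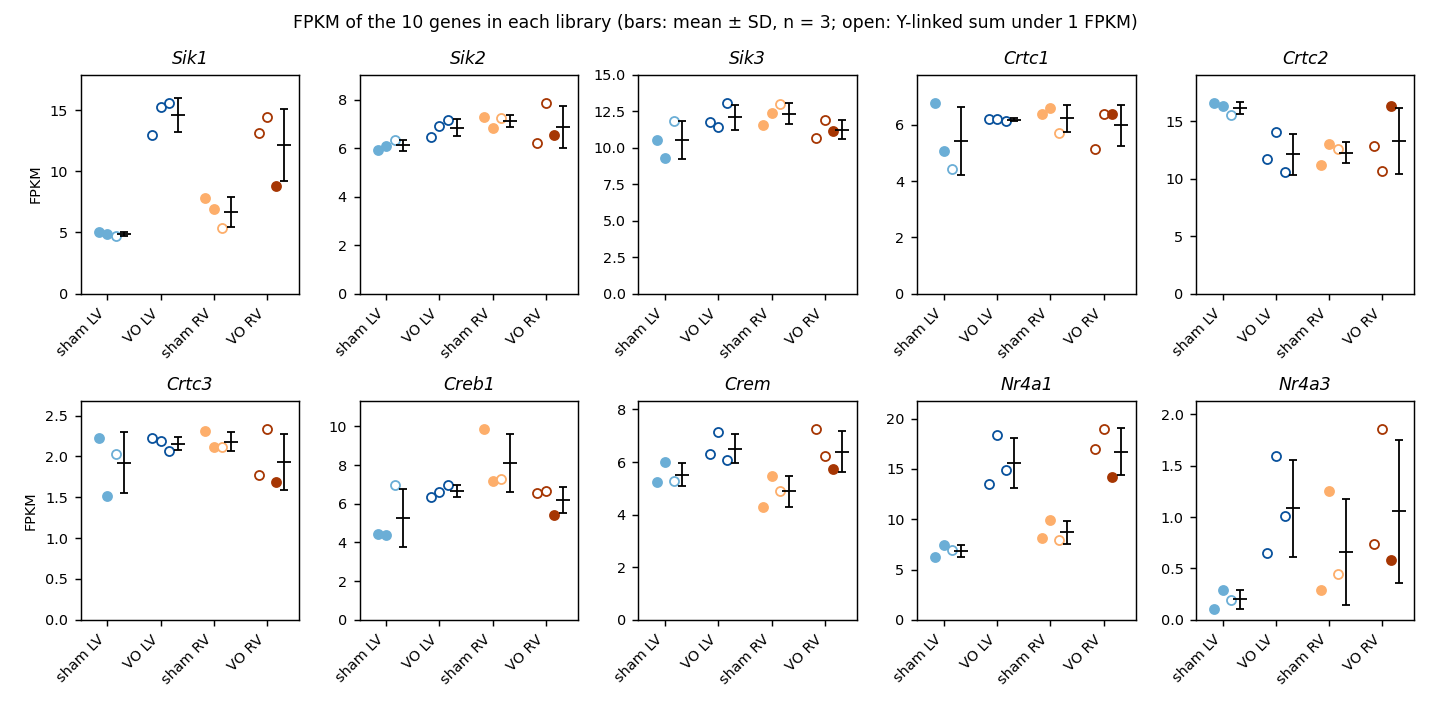
FPKM of the 10 genes in each library, 1 panel per gene with its own y axis from 0, with points for libraries and black bars for the mean ± SD (n = 3). Open points are the 7 libraries with a Y-linked sum under 1 FPKM. All VO points lie above all sham points for Sik1 and Nr4a1, and the groups overlap at least in part for the other 8 genes.

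Sik1 and Nr4a1 were 2 of the 13 genes, 0.0935% of those tested, in which every VO library exceeded every sham library. With Crem, they were 3 of the 34 genes, 0.244%, in which VO lay above sham without overlap in each ventricle taken alone. The LV side of both criteria is the comparison on which the set was selected, so these shares are a description from which nothing is read. The comparisons of VO with sham in the LV and in the RV share no library, but whether an LV and an RV library came from the same animal is not given in the labels.

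In VO LV against sham LV, given only as a description, 2 members were called at an adjusted p under 0.05 and a fold over 1.3, both higher (Sik1 and Nr4a1), against 0.0935% of all tested genes called and 0.0719% called higher. The LV groups did not overlap for 5 members that were higher (Sik1, Sik2, Crem, Nr4a1 and Nr4a3) and 1 that was lower (Crtc2), against 16.7% and 15.7% of tested genes. The median log2 fold change of the members was 0.21, against −0.02 for all tested genes. Since the members were selected on this comparison, nothing is read from these counts. Nor are they stable, since 0 members were called when any VO LV library, sham LV replicate 1 or sham LV replicate 2 was left out, and with a Y-linked covariate, while the fold change lay at 1.41 to 1.59 for Sik1 and 1.00 to 1.22 for Nr4a1 on the log2 scale.

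In VO RV against sham RV, limma called 0 of the 10 members and 0.0% of all genes, and voom on the recovered reads also called 0 members. At an unadjusted p under 0.05 and a fold over 1.3, 2 members were higher (Sik1 and Nr4a1) and 0 lower, against 1.85% and 3.06% of tested genes. The RV groups did not overlap for 3 higher members (Sik1, Crem and Nr4a1) and 1 lower (Creb1), against 5.64% and 6.87% of tested genes. The median was 0.02, against 0.00 for all genes, and 5 of the 10 members lay above 0.

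In sham LV against sham RV, which asks how the ventricles differ without the fistula, limma called 0 members against 3.86% of all genes, and voom 0. At the unadjusted threshold 1 was higher in the LV (Crtc2) and 2 were lower (Sik1 and Creb1), against 8.19% and 9.63% of tested genes. No overlap was seen for 1 higher member and 4 lower ones (Sik1, Sik2, Creb1 and Nr4a1), against 15.6% and 16.6%. Nr4a1 had a log2 fold change of −0.32 ± 0.14 and Sik1 one of −0.41 ± 0.18. These counts use the sham LV libraries on which the set was selected, and nothing is read from them.

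In VO LV against VO RV, limma called 0 members against 0.00719% of all genes, voom called 0, and 0 passed the unadjusted threshold, against 7.4% of genes. The groups overlapped for all 10 members, while 16.1% of tested genes did not overlap. The log2 fold changes ran from −0.11 ± 0.14 for Crtc2 to 0.28 ± 0.18 for Sik1. Nothing is read from these counts either, since VO LV is part of the selecting comparison.

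The LV response minus the RV response was 0.69 ± 0.25 for Sik1, 0.69 ± 0.25 for Creb1, −0.50 ± 0.20 for Crtc2, 0.72 ± 0.53 for Nr4a3 and 0.22 ± 0.20 for Nr4a1 on the log2 scale (SE). No test of these differences is given, since they contain the LV comparison. In the libraries with little Y-linked RNA alone the difference was 0.25 for Sik1, −0.02 for Nr4a1 and 0.06 for Creb1.

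**Figure D4:**
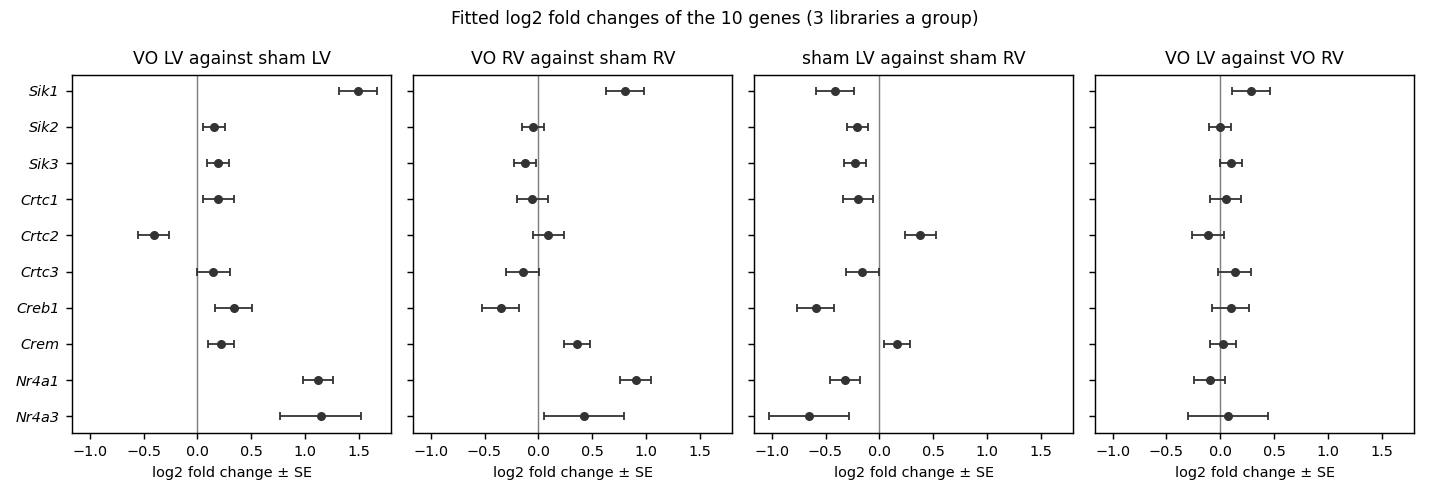
Fitted log2 fold changes of the 10 genes in 4 comparisons, with the x axis on the log2 scale and bars for ± 1 SE (3 libraries a group). Sik1 and Nr4a1 lie to the right of 0 in both VO comparisons, at 1.49 and 1.12 in the LV and 0.80 and 0.91 in the RV, and all 10 genes lie within 0.28 of 0 between VO LV and VO RV.

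Beyond the 10 genes, 89 other genes of the circuit were listed, of which 81 passed the level minimum. They were the enzymes that make cyclic AMP, PKA, LKB1 and its partners, related kinases, 14-3-3 proteins, class IIa histone deacetylases, phosphatases, other CREB factors and other CREB targets. In VO LV against sham LV, limma called 1 of them, Irs2, the insulin receptor substrate that is a CREB and CRTC2 target in liver, whose rise was known when the lists were drawn up and is a description here. The LV count was 9 with voom and 13 with array weights. In VO RV against sham RV it called 0, with 4 higher and 5 lower of 81 at the unadjusted threshold, against 1.85% and 3.06% of tested genes, and voom called 0. Between the sham groups 1 was called higher and 6 lower, against 1.51% and 2.35% of tested genes. In the difference of the responses 9 were called, against 4.19% of tested genes.

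Irs2 was 3.97 to 7.27 FPKM in sham LV and 15.3 to 26.2 FPKM in VO LV, without overlap. The LV value was 1.81 ± 0.28 on the log2 scale and the RV value 0.56 ± 0.28 (adjusted p = 0.618, limma), where sham RV was 12.2 ± 3.68 FPKM and VO RV 18.1 ± 4.92. The LV call was lost when any LV library except sham LV replicate 3, any sham RV library or VO RV replicate 2 was left out.

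Among the 22 other CREB targets tested, 6 were higher and 1 lower in VO LV at the unadjusted threshold, against 9.27% and 6.44% of all tested genes, with a median log2 fold change of 0.22. These 6 include Irs2, known beforehand. In the RV 3 were higher and 0 lower, against 1.85% and 3.06%, with a median of 0.17. The 3 were Egr1 (0.70) and Gem (0.68), both immediate early genes, and Ppp1r15a (0.40), a phosphatase subunit of the stress response, all named after their values were seen. Fos, the best-known early CREB target, had a log2 fold change of 0.60 ± 0.41 in the LV and 0.89 ± 0.41 in the RV (limma, adjusted p of 0.391 and 0.593). Nr4a2, the receptor related to Nr4a1 and Nr4a3, had −0.27 ± 0.15 in the LV and 0.26 ± 0.15 in the RV (adjusted p of 0.298 and 0.642). Id3, the most abundant gene of the list, had −0.43 ± 0.16 in the LV and 0.23 ± 0.16 in the RV (adjusted p of 0.144 and 0.697).

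The PKA list holds the kinase's catalytic and regulatory subunits together with inhibitor peptides of opposite action, and none of its genes passed the adjusted test in VO LV. Of 7 tested genes, 6 were higher in VO LV at the unadjusted threshold (median 0.62), against 9.27% of all tested genes. In the RV 0 were higher and 1 was lower (median −0.32), against 1.85% and 3.06%, and between the sham groups 5 were lower in the LV (median −0.51), against 9.63%. The inhibitor Pkia had the highest LV value of the list (1.45 ± 0.36) and Pkig, another inhibitor, the lowest (−0.03 ± 0.12). Prkar1a, the regulatory subunit with the highest level of the list, was 374.0 ± 47.5 FPKM in VO LV and 279.1 ± 49.7 in VO RV, against 243.3 ± 15.7 in sham LV and 347.0 ± 29.9 in sham RV. VO gave 0.62 ± 0.14 on the log2 scale in the LV and −0.32 ± 0.14 in the RV (limma, adjusted p of 0.0582 and 0.582).

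Between sham LV and sham RV, the genes called included Adcy5, a main cardiac adenylyl cyclase (log2 fold change −0.90 ± 0.16, limma adjusted p = 0.0325), Sfn, a 14-3-3 protein (1.51 ± 0.29, 0.0332), Prkar2a, a PKA regulatory subunit (−1.09 ± 0.23, 0.0361), and Rgs2, a G protein regulator (−0.85 ± 0.19, 0.0407). Nuak1, a kinase related to the SIKs (−0.66 ± 0.10), and Prkaa2, the catalytic AMP kinase subunit alpha 2 (−2.27 ± 0.44), were known to differ here when the lists were drawn up and are given without a p. None of the listed genes was called without sham LV replicate 1 or 2, sham RV replicate 1 or 2 or VO LV replicate 2, with all genes above 0 tested, or with either replicate block. Sfn was low in level, at 0.377 to 2.39 FPKM over all libraries. For Adcy5 the libraries were 27.4, 28.6 and 29.5 FPKM in sham LV and 56.7, 53.7 and 49.9 FPKM in sham RV. Under VO, Adcy5 was 47.3, 49.3 and 57.7 FPKM in the LV and 49.5, 38.2 and 28.2 FPKM in the RV, where replicate 3 lay at the sham LV level.

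The medians of the other lists for VO lay between −0.16 and 0.15 in the LV and between −0.15 and 0.07 in the RV, but single genes lay far from them. Adcy5 had a log2 fold change of 0.84 ± 0.16 in the LV and −0.50 ± 0.16 in the RV (limma, adjusted p of 0.0517 and 0.542), Sfn one of −1.06 ± 0.29 and 0.95 ± 0.29 (0.0798 and 0.542), and Prkaa2 one of 2.37 ± 0.44 and −1.20 ± 0.44. The most abundant gene of each list follows. In the LV and the RV respectively, the log2 fold changes were −0.16 ± 0.13 and −0.20 ± 0.13 for Adcy6, the other main cardiac adenylyl cyclase, 0.07 ± 0.11 and −0.11 ± 0.11 for Cab39, the scaffold of LKB1, and −0.05 ± 0.08 and −0.08 ± 0.08 for Mark3, a kinase of the family. They were 0.08 ± 0.09 and −0.06 ± 0.09 for Ywhae (14-3-3 epsilon), −0.17 ± 0.10 and −0.01 ± 0.10 for Hdac5, 0.24 ± 0.09 and −0.17 ± 0.09 for Ppp2r1a, a phosphatase scaffold, and 0.18 ± 0.10 and 0.03 ± 0.10 for Nono, a partner of CRTC proteins. None of these 7 genes passed the adjusted threshold.

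**Figure D5:**
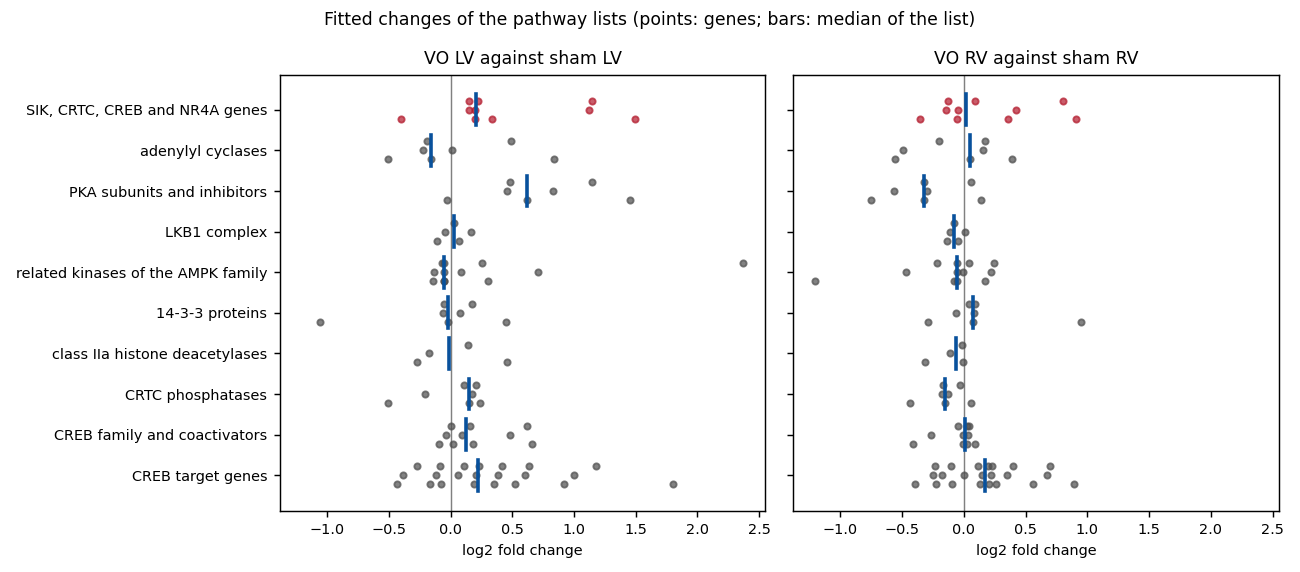
Fitted log2 fold changes for VO in the LV (left) and RV (right), 1 point per tested gene, with 1 line for the 10 genes (red) and 1 per list of the circuit, and blue bars for the medians. The median of the PKA list lies at 0.62 in the LV and −0.32 in the RV, and that of the CREB targets at 0.22 and 0.17.

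The genes whose levels followed Sik1 most closely over the 12 libraries were sought among 12658 genes with a mean of at least 1 FPKM, the members left out, on the log2 scale. They were Irs2 (r = 0.898, rho = 0.888), Inha, an inhibin subunit (r = 0.887, rho = 0.825), Hilpda, a lipid droplet protein (r = 0.881, rho = 0.888), Kif4a, a mitotic kinesin (r = 0.874, rho = 0.881), and Zbed3 (r = 0.866, rho = 0.888). Without the 2 libraries farthest from the median of Sik1, VO LV replicates 2 and 3, r was 0.908, 0.848, 0.890, 0.882 and 0.861 in the same order. Among the members Nr4a1 was the closest to Sik1 (r = 0.941, rho = 0.916, and r = 0.939 without the 2 libraries), above all 5 of these genes. Next came Nr4a3 (r = 0.773) and Crem (r = 0.663), while Crtc2 ran the other way (r = −0.624). These are descriptions over libraries that share their treatment groups, picked as the highest of many, and carry no p.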

How the data were processed

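RNA from 12 libraries was compared (VO and sham, LV and RV, 3 each, grouped by the submitters' labels). Per the study's methods and the submitters' processing notes, the authors removed low-quality reads, aligned the rest with HISAT2 2.0.5, counted reads per gene with featureCounts 1.5.0-p3 and deposited FPKM per gene and library. The genome build, annotation release and strand setting are not given in the sources used here, and overlapping antisense genes cannot be told apart. Positions and lengths of genes are those of the deposited table, and promoter windows are RefSeq GRCr8.

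FPKM times gene length gave whole reads for 100% of values under 200 reads (tolerance 0.02), which gave the depths. Each library's FPKM were scaled by median-ratio size factors and tested as log2 of the value plus 0.5, so fold changes of low genes are understated. Genes averaging 0.5 FPKM or more were fitted in 1 model of the 4 groups with limma 3.58.1 (R 4.3.3, trend), with Benjamini-Hochberg adjustment over 13910 genes. Calls required a fold over 1.3 at an adjusted p under 0.05. Single values were compared by exact two-sided permutation tests of the FPKM. The fit was tested on simulated data. Motifs were searched on both strands with Python 3.11.15.

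The members and lists were chosen with earlier results of these data known (Sik1 and Irs2 in the LV, Prkaa2 and Nuak1 between the sham groups). Named were the members, up to 6 called list genes per comparison by adjusted p, the most abundant gene per list and the 5 genes most like Sik1. Fos, Nr4a2, Egr1, Gem, Ppp1r15a, Ywhag, Pkia and Pkig were named outside this rule, after their values were seen. The lists hold 8 genes below the level minimum, which were not tested. The marker lists for other cell types served to check the tissue. Their summed FPKM over the 12 libraries ranged from 2023 to 4854 for fibroblasts, 243.8 to 382.9 for endothelial cells, 35.5 to 68.2 for macrophages, 405.4 to 628.5 for smooth muscle, 6698 to 17260 for red blood cells and 6.02 to 13.4 for nerve. To look for pairs, each library's deviations from its group means over the tested genes were correlated within each surgery. For same-numbered LV and RV libraries these correlations ran from −0.219 to 0.123, so the numbers were not taken to pair them. Alternatives were other scalings, pseudocounts of 1 and 0.1, other filters, separate fits, robust and weighted fits, voom on the recovered reads, covariates, a replicate block, single libraries left out and, added after the data were seen, the 7 libraries with a Y-linked sum under 1 FPKM.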

Additional observations from a re-analysis of the deposited data

Results flagged for a closer look

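The LV and RV responses to VO differed for 9 of the 81 listed genes of the circuit by limma's test of the difference (LV response minus RV response, adjusted p under 0.05), against 4.19% of all tested genes. On the log2 scale the difference was 1.34 for Adcy5, 3.58 for Prkaa2, 1.71 for Prkar2a, 0.72 for Nuak1, 1.31 for Ppargc1a (a mitochondrial coactivator), 0.94 for Prkar1a, 0.74 for Ywhag (14-3-3 gamma) and 2.20 for Pkia (a PKA inhibitor peptide). It was −2.004 for Sfn, the only one of the 9 below 0 and a gene of low level (0.377 to 2.39 FPKM). All of these include sham LV, in which 7 listed genes already differed from sham RV. Of the 81 genes, 3 were called without VO RV replicate 3 and 5 without VO LV replicate 1. None was called without sham LV replicate 1 or 2, sham RV replicate 1 or 2 or VO LV replicate 2 or 3, with all genes above 0 tested, with either replicate block, without both libraries high in atrial markers, or in the 7 libraries with little Y-linked RNA. Prkaa2 and Nuak1 were known to differ between the sham groups when the lists were drawn up.

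The LV and RV fold changes had opposite signs for Sik2, Sik3, Crtc1, Crtc2, Crtc3 and Creb1. The share of all tested genes with opposite signs is not given, and nothing is read from this count. With single libraries left out, the RV values of Sik2, Crtc1 and Crtc2 changed sign. Of the genes with opposite signs, Sik3 and Creb1 had every VO library on the same side of the sham mean within each ventricle. Neither passed the adjusted test in the RV. For both, the LV groups overlapped, but every VO LV library lay above the sham LV mean and every VO RV library below the sham RV mean, with LV minus RV differences of 0.32 and 0.69 on the log2 scale. In the libraries with little Y-linked RNA, the difference of Creb1 was 0.06 and its LV fold change −0.068, so its signs were no longer opposite. The only sham LV library among them (6.99 FPKM) lay above the VO LV libraries (6.37 to 6.97 FPKM). The difference was not tested for Sik3 and Creb1 on their own. No call from the fit over all genes is read for them, because the members were selected on the LV comparison that the difference contains.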

How the results depend on the processing

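Calls of members outside VO RV against sham RV are a description, since the members were selected on the LV libraries. The number of called members was 0 in VO RV against sham RV and in VO LV against VO RV under every alternative run. In VO LV against sham LV it fell from 2 to 0 with a Y-linked covariate and in the libraries low in Y-linked RNA, and to 1 without both VO RV replicate 2 and sham RV replicate 1 (Sik1 kept). With single libraries left out it ranged from 0 to 2, and it was 0 without VO LV replicate 1, 2 or 3 or sham LV replicate 1 or 2, and 1 without sham RV replicate 3. Between the sham groups and for the difference of the responses it ranged from 0 to 1, the 1 being Creb1 without sham LV replicate 3. The cause of these changes was not tested. Fits with fewer libraries also have fewer degrees of freedom, and the part of this was not tested either.

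Calls among the 81 listed genes were less stable. Between the sham groups, 7 calls became 11 with quantile normalization and with voom, 13 with array weights, and 0 with all genes above 0, either replicate block, without both atrial-high libraries or in the libraries low in Y-linked RNA (single libraries left out: 0 to 12). In the LV, 1 call became 0 with a pseudocount of 1, all genes above 0, the replicate block, robust moderation, the Y-linked covariate, without both atrial-high libraries or in the libraries low in Y-linked RNA. It became 3 with a pseudocount of 0.1, 6 with a mean of at least 1 FPKM, 7 with separate fits, 9 with voom or an atrial covariate and 13 with array weights (left out: 0 to 11). For the difference of the responses, 9 calls became 15 with the atrial covariate, 3 with the Y-linked covariate, and 0 with all genes above 0, either replicate block, without both atrial-high libraries or in the libraries low in Y-linked RNA (left out: 0 to 12). The replicate block uses a number that is not shown to pair the libraries, and it changed no member's call.

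Of the members' fold changes recomputed, 1326 kept their direction and, where a p was given, their side of the threshold. Of the rest, 15 moved by more than the spread between libraries, 23 others turned sign and 1 became called (Creb1 between the sham groups). The 15 include turns of sign in the libraries low in Y-linked RNA. There Creb1 for VO in the LV went from 0.34 to −0.068, and the Nr4a1 difference of the responses from 0.22 to −0.02. Where no p was given, the lost and gained calls are those listed above. No value that turned sign was called. In VO RV against sham RV, Crtc1 turned to 0.023 with the Y-linked covariate and 0.013 in the libraries low in Y-linked RNA, Crtc2 to −0.096 in the latter and Nr4a3, from 0.42, to −0.15 without both atrial-high libraries. With single libraries left out, the ranges there were −0.14 to 0.015 for Sik2, −0.11 to 0.041 for Crtc1, −0.060 to 0.23 for Crtc2 (below 0 without VO RV replicate 3) and 0.08 to 0.76 for Nr4a3. In VO LV against VO RV, Sik2 turned to 0.0084 with array weights, 0.060 with the atrial covariate and 0.094 without both atrial-high libraries, Crem to −0.013 with the atrial covariate, and in the libraries low in Y-linked RNA Crtc2 turned to 0.038, Crem to −0.046 and Nr4a3 to −0.15. With single libraries left out, the ranges there were −0.065 to 0.094 for Sik2, −0.046 to 0.0999 for Crtc1, −0.26 to 0.038 for Crtc2, −0.046 to 0.11 for Crem and −0.15 to 0.41 for Nr4a3. The Sik1 share of the SIK sum, with single libraries left out, was 22.0% to 23.8% in sham LV, 23.7% to 27.9% in sham RV, 42.6% to 44.5% in VO LV and 37.7% to 43.0% in VO RV. Depth limits Nr4a3, with as few as 7 reads.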
